A study of Saccharomyces cerevisiae with 3 samples.

Results

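The 65 genes described here are those whose symbol in the array's probe table reads MRP, MRPL, MRPS or RSM followed by a number, the names given in Saccharomyces cerevisiae to proteins of the mitochondrial ribosome. Of these, 64 had a value on 2 or more of the 3 arrays and were tested, among 5479 such genes of 5543 on the array. By name, 35 of the tested genes belong to the large subunit and 27 to the small subunit, and MRP35 and MRP8 stand apart. RNA from cultures producing War1K762R was set directly against RNA from cultures producing War1 on each of the 3 two-colour arrays, which the design text calls biological repeats. Both strains were W303 and made War1 or War1K762R from the GAL1 promoter, so that all cells carried a galactose-driven WAR1 and differed in the exchange of 1 residue named in the label. Cultures at 30 °C in rich raffinose medium (2%) were given 2% galactose at an OD600 of 0.8 and harvested 1 h later. No acid is named in the labels, and the sources used here do not state whether a chromosomal WAR1 copy remained. War1K762R was labelled with Cy5 on replicates 1 and 2 and with Cy3 on replicate 3.

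Values are log2 ratios of War1K762R over War1 with the spot median of each array set to 0. Their direction is likely, not certain. It follows from the dye labels if the scanner divided Cy5 by Cy3, a formula that the sources do not give, and the opposite division would turn all signs and leave sizes and tests as they are. A ratio compares shares of labelled cDNA, and amounts of a transcript per cell were not measured. Errors are the SD between arrays. PDR12, the transporter gene that War1 induces, had a mean of 0.96 ± 0.45 (SD, n = 3, limma, adjusted p = 0.00764) and WAR1 one of 0.35 ± 0.34 (SD, n = 3, limma, adjusted p = 0.241).

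The mitochondrial ribosome makes the few proteins that mitochondrial DNA encodes, most of them core subunits of the respiratory chain and the ATP synthase. Nearly all of its proteins are encoded in the nucleus, made in the cytosol and imported. Many have counterparts in the bacterial ribosome, while others are found in mitochondria only. In budding yeast their transcripts are known as a group that rises in respiratory growth and as main targets of the RNA-binding protein Puf3. In the ribosome nomenclature used for the RefSeq names below, u stands for a family found in all domains of life, b for a bacterial family and m for a mitochondrial one, and L and S give the subunit.

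No mitochondrial ribosomal protein gene passed the test between War1K762R and War1 cells after adjustment over all genes. In limma, 0 of 64 passed at an adjusted p of 0.05, where 2.14% of the 5479 genes did (117 genes). That is 0 higher, where 1.22% of all genes were, and 0 lower, where 0.913% were. At an unadjusted p under 0.05 there were 3, MRPL4 and MRPL3 with positive and MRP20 with negative means, where 16.9% of all genes lay. The lowest adjusted p of a member was 0.0998, for MRPL4. The means ran from −0.45 for MRP20 to 0.44 for MRPL4, with a median of −0.08, and 0 of 64 reached 1.5-fold either way, where 2.92% of all genes did. The 95% interval of the mean lay wholly within 1.5-fold of no change for 60 of 64 members, where it did for 74.6% of all genes. The other 4 were MRPL4 (0.16 to 0.71), MRPL3 (0.07 to 0.63), RSM18 (−0.23 to 0.65) and MRP20 (−0.86 to −0.04). The share of all genes within differed with the number of arrays, at 84.41% on 3 arrays and 56.16% on 2. Of the members on 3 arrays, 94.44% lay within. Of the cytosolic ribosomal protein genes 92.13% did, so the high share was not particular to the members. Each interval is for the mean of its own gene and not for all 60 together, but its width leans on all genes. In limma the variance of a gene is drawn toward that of all genes, here with 12.64 prior degrees of freedom. MRPS18 (−0.26 to 0.53) counts as within, though its SD between arrays was 0.63 and its value in replicate 2 was 0.86. The count therefore does not show an absence of change gene by gene. The fit had no dye term, so the intervals of genes on 3 arrays can also hold a part of a dye effect. For the 9 of the 60 on 2 arrays, the interval covers strain and dye effects jointly, and these cannot be told apart.

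**Figure D1:**
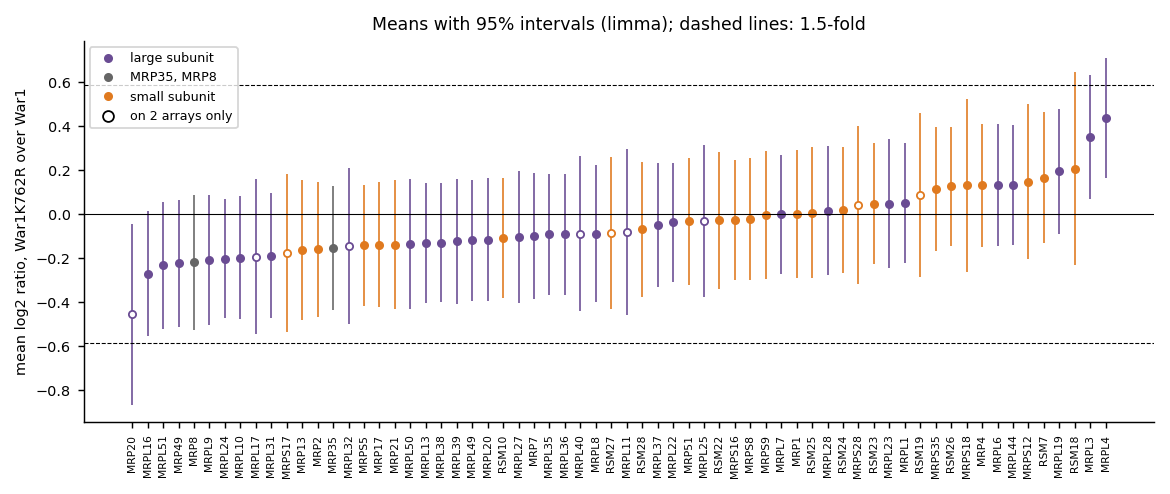
Mean log2 ratio, War1K762R over War1, of the 64 tested genes in ascending order, with 95% intervals from limma; filled points rest on 3 arrays and open points on 2, and the dashed lines mark 1.5-fold. All means lie between −0.45 and 0.44, and the intervals of MRP20, RSM18, MRPL3 and MRPL4 cross a dashed line.

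With the arrays centred on all spots, the small offset of the group from 0 did not have the same sign on each array. The members' medians were −0.13 in replicate 1, 0.03 in replicate 2 and −0.12 in replicate 3, against 0.01, −0.0001 and 0.01 for all genes tested. Large subunit genes had array medians of −0.13, −0.002 and −0.16, and small subunit genes of −0.13, 0.09 and −0.08, so that replicate 2 was the array on which neither subunit lay clearly below the middle. Over the arrays together, the median of the means was −0.10 for the large subunit (27 of 35 below 0) and −0.003 for the small subunit (14 of 27 below 0), where 50.0% of all genes had a mean below 0. That share depends on the number of arrays. It was 39.96% of all genes on 3 arrays and 68.95% on 2, against 64.8% and 80.0% of the members. Set against genes measured on all 3 arrays, the 54 members on all 3 lay lower on every array, with medians of −0.10, 0.04 and −0.12 against 0.07, 0.06 and 0.01. Centring on those genes gave a median of the members' means of −0.13, against −0.05 for all genes tested. The difference between the subunits was not tested, since their genes share the 3 arrays. With the deposited sign of replicate 3 turned once more, the medians were −0.003 and 0.05.

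**Figure D2:**
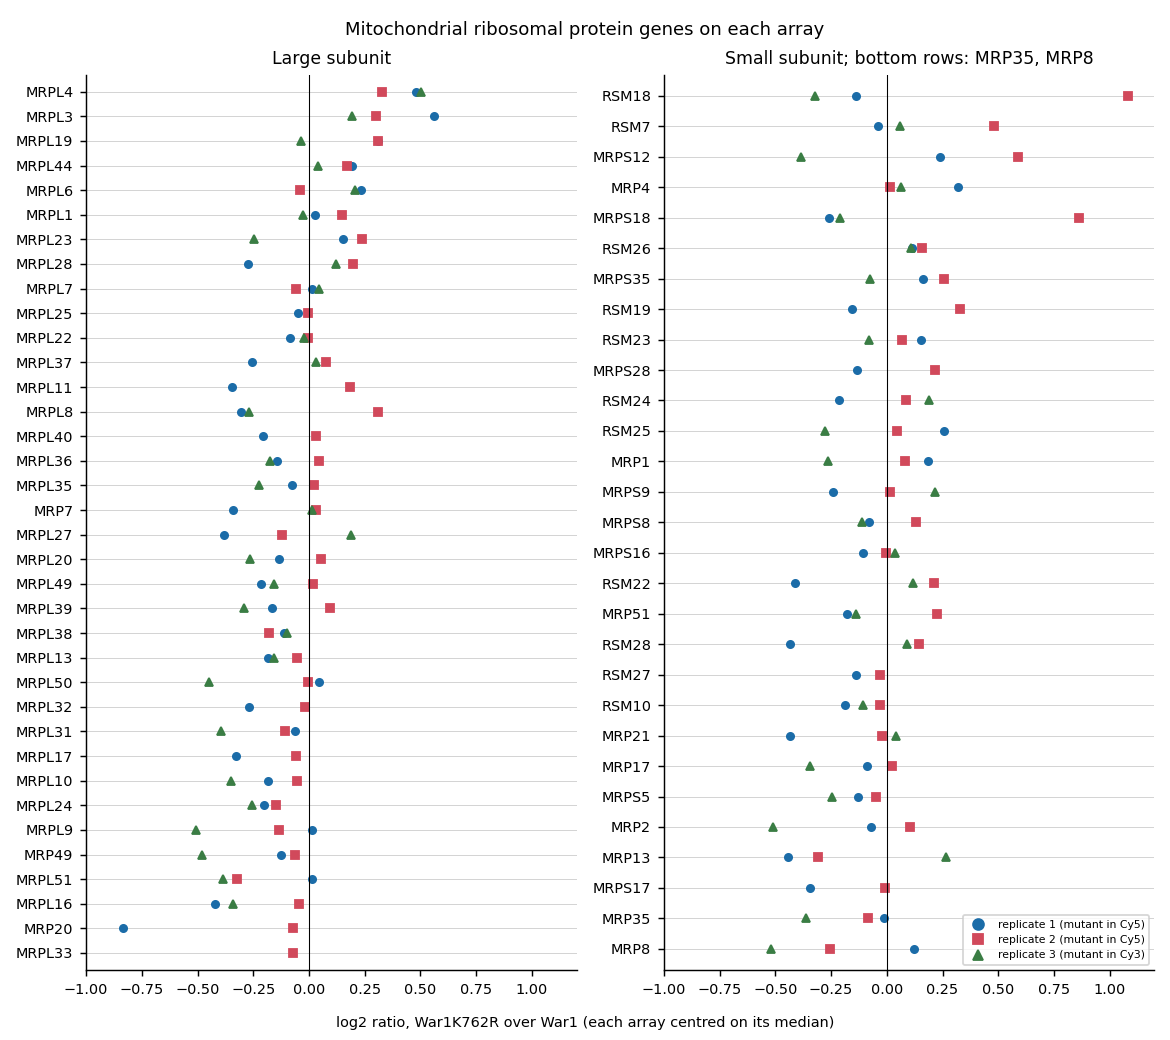
Log2 ratio of each of the 65 genes on each array (circles, replicate 1; squares, replicate 2; triangles, replicate 3), with the large subunit on the left and the small subunit, MRP35 and MRP8 on the right, each ordered by mean. MRPL4 and MRPL3 lie above 0 on all arrays, RSM18 and MRPS18 stand out in replicate 2 alone, and 10 tested genes and MRPL33 have no triangle.

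Genes with a value on all 3 arrays numbered 54. Of these, 5 were above 0 on all 3 (MRPL4, MRPL3, MRPL44, RSM26 and MRP4), where 24.7% of 3579 genes were, and 11 were below 0 on all 3, where 13.5% were. Those 11 were 8 large subunit genes (MRPL16, MRPL24, MRPL10, MRP49, MRPL31, MRPL13, MRPL38 and MRPL22), the small subunit genes MRPS5 and RSM10, and MRP35. These are signs of spot averages, and some average spots on both sides of 0. Examples in replicate 3 are MRPL22 (−0.31 and 0.27), MRPL38 (−0.35 and 0.15) and MRPL44 (−0.08 and 0.16). With the arrays centred on the genes measured on all 3, the counts were 4 above and 19 below, where 18.7% and 18.6% of genes were. With replicate 3 turned once more they were 8 above and 4 below, where 16.6% and 8.49% were. Without centring they were 4 above and 3 below, where 16.8% and 6.84% were. The spread of the members on an array was narrower than that of all genes, with interquartile ranges of 0.26, 0.22 and 0.33 against 0.44, 0.37 and 0.36. For genes on all 3 arrays the ranges were 0.309, 0.216 and 0.334 for members against 0.389, 0.364 and 0.357. Cytosolic ribosomal protein genes also had narrower ranges than all genes, at 0.339, 0.245 and 0.254. At least 1.5-fold either way on a single array lay 1 member in replicate 1 (MRP20), 3 in replicate 2 (RSM18, MRPS18 and MRPS12) and 0 in replicate 3, where 7.1%, 8.0% and 2.93% of genes did. The values of the members on the arrays correlated weakly. Pearson's r over the 54 genes was 0.157 between replicates 1 and 2, 0.026 between 1 and 3, and 0.078 between 2 and 3. Over all 3579 genes it was 0.311, 0.179 and 0.252. Spearman's rho was 0.183, −0.124 and 0.224 for the members, against 0.305, 0.155 and 0.236 for all genes, so that by rank replicates 2 and 3 were about as alike for the members as for all genes. Those points share arrays and spotted probes, and no test is attached to them.

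**Figure D3:**
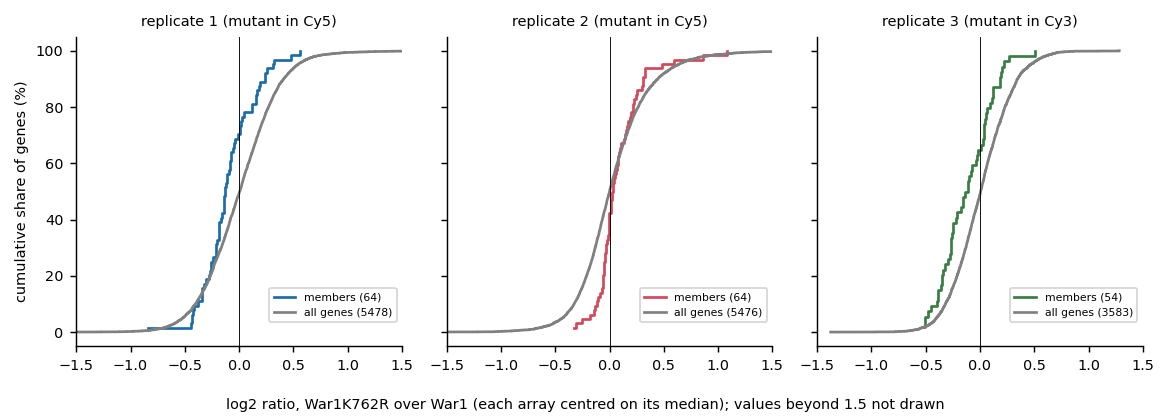
Cumulative share of genes by log2 ratio in replicates 1, 2 and 3, with the members in colour and all genes on 2 or more arrays in grey (numbers in the legends). The middle of the members' curve lies left of that of all genes in replicates 1 and 3, at medians of −0.13 and −0.12, and not in replicate 2, where the median is 0.03.

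Both extremes of the large subunit are proteins at the exit of its peptide tunnel. MRPL4 (YLR439W, uL29m) had log2 ratios of 0.48, 0.33 and 0.50 in replicates 1, 2 and 3. All were positive and close together, with a mean of 0.44 ± 0.10 (SD, n = 3), or 1.35-fold, and an adjusted p of 0.0998 in limma. MRP20 (YDR405W, uL23m) had −0.84 and −0.07 and no value in replicate 3, so its mean of −0.45 ± 0.54 (SD, n = 2) came almost wholly from replicate 1 and from arrays with the mutant in Cy5 only (limma, adjusted p = 0.25). MRPL22 (uL22m), which lines the tunnel, had −0.08, −0.003 and −0.02. The neighbouring proteins of 1 site on the ribosome thus had means of 0.44, −0.04 and −0.45.

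MRPL3 (YMR024W, mL44), a mitochondrial family member with a ribonuclease III fold, was the other gene with clearly positive values, at 0.56, 0.30 and 0.19 (mean 0.35 ± 0.19, SD, n = 3, 1.28-fold, limma, adjusted p = 0.202). The stalk genes MRPL19 and MRPL11 had opposite signs in replicate 1 and the same sign in replicate 2, and neither passed. MRPL19 (uL11m), at the stalk base, had 0.31, 0.31 and −0.04, whereas MRPL11 (uL10m), which anchors the stalk, had −0.34 and 0.18 and no value in replicate 3. MRPL1 (uL1m), of the stalk on the other side, had 0.03, 0.15 and −0.03. MRPL44 (mL53) and MRPL6 (uL6m) had means of 0.13 ± 0.08 and 0.13 ± 0.15 (SD, n = 3 each).

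The lowest means of the large subunit on 3 arrays were those of MRPL16, MRPL51, MRP49, MRPL9, MRPL24 and MRPL10. MRPL16 (YBL038W, uL16m), close to the peptidyl transferase centre, had −0.42, −0.05 and −0.34 (mean −0.27 ± 0.20, SD, n = 3, limma, adjusted p = 0.322). MRPL9 (uL3m), which also reaches toward that centre, had 0.01, −0.13 and −0.51. The replicates with low values were not the same for these genes, since replicate 1 was low for MRPL16 and near 0 for MRPL9. MRPL24 (bL28m) was the steadiest of the low genes, at −0.20, −0.15 and −0.25 (mean −0.20 ± 0.05, SD, n = 3, limma, adjusted p = 0.437). MRPL10 (uL15m) had −0.18, −0.06 and −0.35. The mitochondrial families mL43 and mL61, encoded by MRPL51 and MRP49, had means of −0.23 ± 0.22 and −0.22 ± 0.23 (SD, n = 3 each). MRP7 (bL27m), whose bacterial counterpart touches the transfer RNA at the catalytic centre, had −0.34, 0.03 and 0.01. MRPL32 (bL32m), which the m-AAA protease matures before ribosomes assemble, had −0.27 and −0.02 and no value in replicate 3. All other tested large subunit genes had means between −0.19 and 0.05.

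Small subunit genes spanned a narrower range of means, from −0.18 for MRPS17, on 2 arrays, to 0.21 for RSM18, and had a lowest adjusted p of 0.576 (limma). Their 3 largest positive values came from replicate 2. RSM18 (YER050C, bS18m), a platform protein, had −0.14, 1.08 and −0.32, and MRPS18 (YNL306W, uS11m), also of the platform, had −0.26, 0.86 and −0.21. MRPS12 (YNR036C, uS12m), the protein of the decoding site, had 0.24, 0.59 and −0.39. The means of these 3 genes were 0.21 ± 0.76, 0.13 ± 0.63 and 0.15 ± 0.49 (SD, n = 3 each), with SDs far above the median SD of 0.23 for small subunit genes. RSM7 (uS7m), of the head, had −0.04, 0.48 and 0.06. RSM26 (YJR101W, mS42), related to iron and manganese superoxide dismutases, was the most even member, at 0.11, 0.16 and 0.11 (mean 0.13 ± 0.03, SD, n = 3, limma, adjusted p = 0.644). Its relative MRP1 (mS43), which shares that fold, had 0.18, 0.08 and −0.26. MRP4 (uS2m) had 0.32, 0.01 and 0.06.

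The lowest small subunit genes on 3 arrays were MRP13 (mS44) at −0.44, −0.31 and 0.27 and MRP2 (uS14m), of the head, at −0.07, 0.10 and −0.51. For both, 1 array had the opposite sign. MRPS5 (uS5m), at the entry of the mRNA channel, kept a sign with −0.13, −0.05 and −0.24 (mean −0.14 ± 0.10, SD, n = 3), as did RSM10 (uS10m) with −0.19, −0.03 and −0.11. MRP17 (bS6m), whose bacterial counterpart pairs with S18 on the platform, had −0.09, 0.02 and −0.35, without the high value that RSM18 had in replicate 2. MRP21 (bS21m) and MRP51 (bS1m), both known from suppressors of mutations in the leaders of the mitochondrial COX2 and COX3 mRNAs, had means of −0.14 ± 0.26 and −0.03 ± 0.22 (SD, n = 3 each). RSM22, related to methyltransferases and without a family name in RefSeq, had −0.41, 0.21 and 0.12.

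RefSeq gave a family name to 63 of the 65 genes, 41 in families shared with bacteria and 22 in mitochondrial ones. Their medians lay close together. Tested genes of shared families had a median mean of −0.09 (40 genes) and those of mitochondrial families one of −0.06 (22 genes), and 0 passed in either. Within the large subunit by family name the medians were −0.10 for 23 shared and −0.10 for 13 mitochondrial families, and within the small subunit −0.02 for 17 and 0.01 for 9. MRP35, which RefSeq names bL35m and so places in the large subunit, had −0.01, −0.09 and −0.36 (mean −0.15 ± 0.18, SD, n = 3). MRP8, which carries the name but has no ribosome family in RefSeq, had 0.12, −0.25 and −0.52 (mean −0.22 ± 0.32, SD, n = 3, limma, adjusted p = 0.464).

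MRPL33 (uL30m) had a value in replicate 2 only, −0.07, and was not tested. The 10 genes measured in replicates 1 and 2 but not 3 were MRP20, MRPL11, MRPL17, MRPL25, MRPL32, MRPL40, MRPS17, MRPS28, RSM19 and RSM27. All 10 were below 0 in replicate 1 and 6 of 10 were in replicate 2. Among all 1900 genes measured on 2 arrays, the medians in replicates 1 and 2 were −0.14 and −0.12, against 0.07 and 0.06 for the 3579 genes on 3. A gene without replicate 3 has the mutant in Cy5 on both of its arrays, so strain and dye cannot be told apart for these 10 genes. Replicate 3 held a value for 54 of 65 members (83.1%), against 3583 of 5543 genes (64.6%). Of 67 genes of this name pattern in the R64 annotation, MRP10 and MRPL15 were not analysed here.

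The members lay on 14 chromosomes. Only MRPS12 and RSM19 are direct neighbours of each other in the R64 gene order. MRPS12 had 0.24, 0.59 and −0.39, and RSM19 (uS19m) had −0.16 and 0.33 and no value in replicate 3. MRPL1 neighbours MRX14 (bL34m), a large subunit gene outside the name pattern.

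Each member had 2 spots on the array, whose difference shows the error between spots within an array and not the error between arrays. The median difference between the spots of a member was 0.09, 0.14 and 0.11 in replicates 1, 2 and 3, close to the 0.09, 0.12 and 0.12 of all genes with 2 measured spots. RSM18 was far outside this range in replicate 2, with spots at 0.01 and 2.15. Its spots differed by 0.12 in replicate 1 and by 0.001 in replicate 3. Without the higher spot, left out after its value was seen, RSM18 had −0.14, 0.01 and −0.32 and a mean of −0.15 ± 0.16 (SD, n = 3, limma, adjusted p = 0.592), so the sign of its mean rested on 1 spot. MRPS18 and MRPS12 differed by 0.14 and 0.15 between spots in replicate 2, so both of their spots carried the high value. After RSM18, the largest differences between spots were 0.58 for MRPL8, 0.58 for MRPL22 and 0.50 for MRPL38, all in replicate 3.

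**Figure D4:**
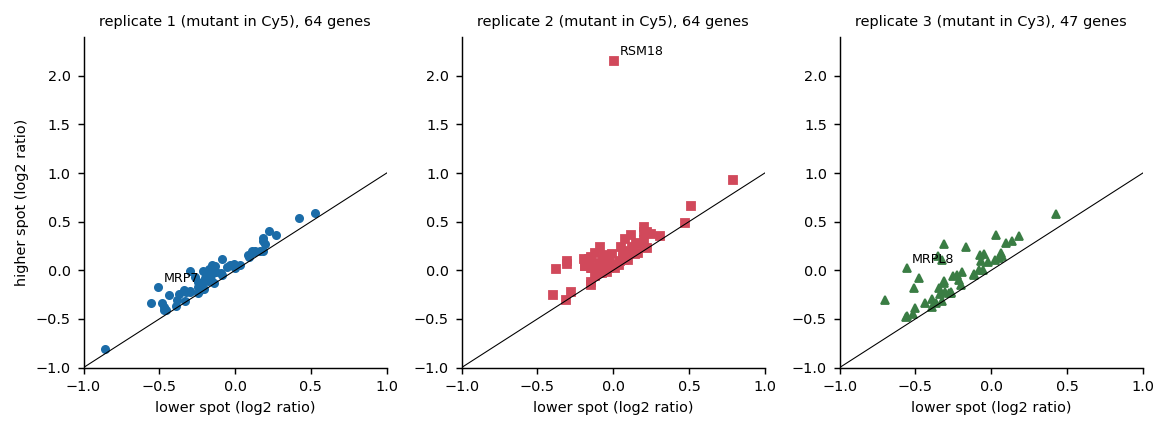
Lower against higher spot of each member with 2 measured spots (64, 64 and 47 genes in replicates 1, 2 and 3), as log2 ratios centred per array; the line marks equal values and the gene with the largest difference is named. RSM18 in replicate 2, at 0.01 and 2.15, is the 1 gene far from the line.

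The genes that work with the mitochondrial ribosome were followed in 9 lists with 85 genes, of which 83 had values on 2 or more arrays. No gene of these lists passed (limma, 0 of 83, where 2.14% of all genes did), and 14 had an unadjusted p under 0.05, where 16.9% of all genes lay. Ribosomal proteins with other names had medians of 0.11 for the large subunit (7 genes) and −0.01 for the small subunit (5 genes). Of these, MHR1 (mL67), also known for DNA recombination in mitochondria, had a mean of 0.20, IMG1 (bL19m) of 0.19 and IMG2 (mL49) of −0.05, with RML2 (uL2m) at −0.01. NAM9 (uS4m) had a mean of 0.17, PET123 (mS26) of −0.01 and SWS2 (uS13m) of −0.15.

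Translation factors had a median of −0.12 (9 genes, 3 of them on all arrays). For all genes the median mean was −0.12 on 2 arrays and 0.05 on 3. Medians of lists with unlike numbers of arrays are thus not directly comparable. TUF1, the elongation factor that brings transfer RNA to the ribosome, had 0.47, 0.37 and 0.20 (mean 0.34 ± 0.14, SD, n = 3, limma, adjusted p = 0.202). The translocation factor gene MEF1 had a mean of 0.21 and the release factor gene MRF1 one of −0.12. Activators and other factors of mitochondrial mRNAs had a median of −0.04 (19 genes, 9 of them on all arrays). MSS51, which activates translation of COX1 mRNA, had 0.54, 0.34 and 0.45 (mean 0.44 ± 0.10, SD, n = 3, limma, adjusted p = 0.0932), the lowest adjusted p of the lists. PET111, the activator of COX2 mRNA, had a mean of 0.21, PET54, which acts on COX3 mRNA, one of −0.28 and RMD9 one of −0.09.

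Ribosome assembly and rRNA modification had a median of −0.01 (10 genes). AFG3, a subunit of the m-AAA protease, had 0.47, 0.27 and 0.33 (mean 0.36 ± 0.10, SD, n = 3, limma, adjusted p = 0.182), while MAM33 had a mean of 0.15, GEP3 of 0.04 and MRM1, an rRNA methyltransferase gene, of −0.20. For insertion into the inner membrane the median was 0.04 (7 genes), with the ribosome receptor gene MBA1 at 0.24, the insertase gene OXA1 at 0.14, MDM38 at 0.04 and YLH47 at −0.13. Mitochondrial tRNA synthetases had a median of −0.05 (13 genes, 3 of them on all arrays), with SLM5 at 0.21, MSD1 at 0.20 and MSW1 at −0.05. Among genes for mitochondrial DNA and its transcription (7 tested, median 0.01), the RNA polymerase gene RPO41 had 0.22, 0.41 and 0.34, the nuclease gene NUC1 a mean of −0.21 and the packaging protein gene ABF2 one of −0.09. Of the regulators (6 genes, median −0.11), HAP4, the activating subunit of the factor that induces respiratory genes, had 0.38, 0.24 and 0.25 (mean 0.29 ± 0.08, SD, n = 3, limma, adjusted p = 0.262), with HAP1 at −0.07 and HAP2 at −0.10. HAP3, a DNA-binding subunit of the same factor, had −0.43 and −0.71 and no value in replicate 3 (mean −0.57 ± 0.20, SD, n = 2, limma, adjusted p = 0.0987). HAP5, also without a value in replicate 3, had −0.13 and −0.13. PUF3, the remaining regulator, had −0.23 and −0.07 and no value in replicate 3 (mean −0.15 ± 0.115, SD, n = 2, limma, adjusted p = 0.672). None of the HAP genes passed, and differences between them were not tested. On these same 2 arrays the initiation factor genes IFM1 and AIM23 had means of −0.42 and −0.44, and the lysyl-tRNA synthetase gene MSK1 had one of 0.52. HAP3, HAP5, PUF3, IFM1, AIM23 and MSK1 were picked after their values were seen.

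**Figure D5:**
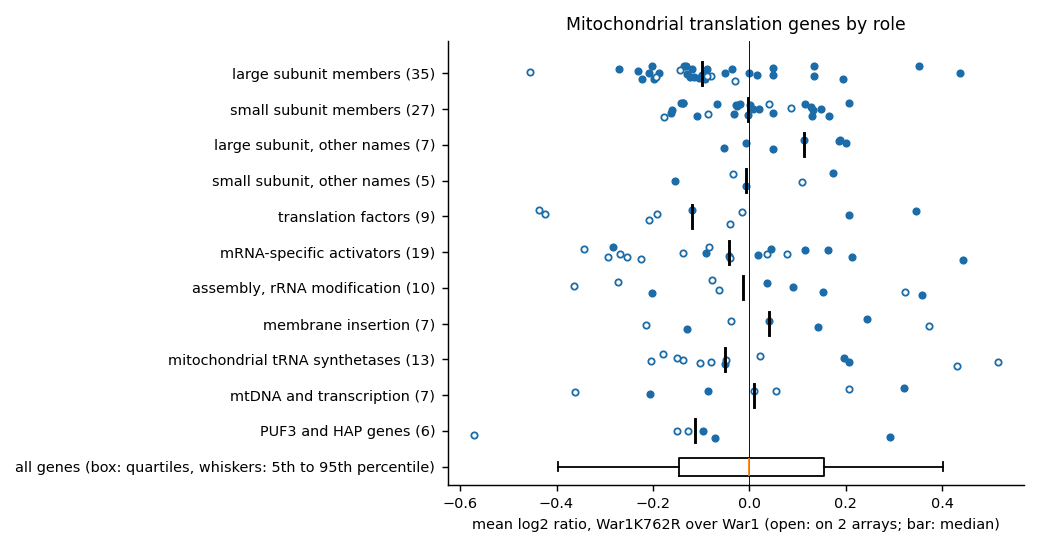
Mean log2 ratio, War1K762R over War1, of the tested large and small subunit genes and of the 9 lists of other mitochondrial translation genes (filled, on 3 arrays; open, on 2; bar, median), above a box for all 5479 genes tested. Medians run from −0.12 for translation factors (3 of 9 genes on 3 arrays) to 0.11 for large subunit proteins with other names (7 of 7 on 3 arrays). For all genes the median was 0.05 on 3 arrays and −0.12 on 2.

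Cytosolic ribosomal protein genes with RPL or RPS names, 127 tested, had array medians of 0.13, −0.04 and −0.28, where the mitochondrial members had −0.13, 0.03 and −0.12. The medians of the 2 kinds of ribosome genes had opposite signs in replicates 1 and 2, with the cytosolic genes higher in replicate 1 and lower in replicate 2, and were both below 0 in replicate 3. No test was made of that difference. Over the arrays together, the median mean was −0.05 for the cytosolic genes and −0.08 for the members. Means lay below 0 for 66.9% and 67.2%, where 50.0% of all genes did. Of genes on all 3 arrays, 26.8% of the cytosolic genes and 20.4% of the members were below 0 on each, where 13.5% of genes were. Above 0 on each were 3.25% and 9.26%, where 24.7% of genes were. Of the 127 cytosolic genes 0 passed in limma, where 2.14% of all genes did, and 7 had an unadjusted p under 0.05, where 16.9% lay.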

How the data were processed

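Each deposited value is a log2 ratio of a spot on an array. Scanner, ratio formula, spot filter and normalization were not given in the sources used here. Intensities were not used. Values were present for 12277, 12112 and 7367 of 13056 spots in replicates 1, 2 and 3, and the deposited medians were −0.27, 0.16 and 0.09. As 2 to the power of the value, 100% of the values between −0.5 and 0.5 were numbers with 3 decimals in replicates 1 and 2, and in replicate 3 only after a change of sign (10.2% without it). On that basis the 3 columns were used as deposited, with replicate 3 read as already inverted. The labels' treatment text names the mutant for the Cy3 channel of replicates 1 and 2, against the channel's source name, and was not used.

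The median over spots was subtracted from each array, and the spots of a gene were averaged. The probe table gave 1 symbol to 11146 spots, and all 65 members matched the RefSeq table of assembly R64, used for names and gene order. The mean ratio of genes on 2 or more arrays was tested against 0 with limma 3.58.1 in R 4.3.3 (two-sided, lmFit with eBayes) and adjusted by Benjamini-Hochberg over all 5479 genes, after a check on simulated data. No adjusted p is over the members alone. Alternatives were genes on all 3 arrays, each replicate left out, other centring, single spots, a dye term, array weights and the sign of replicate 3.

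Members and lists were chosen with earlier results of these data known. Named are, per subunit, the 6 highest and 6 lowest means on 3 arrays, per list the 2 highest and 2 lowest, any past the threshold, MRPL33, MRP8, the 3 members whose spots differ most, WAR1 and PDR12. Further members and genes were added after their values were seen, for their roles or their size. The number of arrays limits the precision.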

Additional observations from a re-analysis of the deposited data

How the results depend on the processing

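In 10 other settings 0 members and 0 genes of the other lists passed in limma, with lowest adjusted p from 0.103 to 0.745 for a member, reached by MRPL4 in 8 of the settings. The background moved: of all genes 117 passed (67 higher, 50 lower), but 13 with genes on all 3 arrays (12 and 1), 39 without centring (24 and 15), 47 with centring on genes with all 3 arrays (21 and 26), 24 with single spots (13 and 11), 3 with a dye term (2 and 1), and 2 with replicate 3 turned once more (1 and 1). Without replicates 1, 2 and 3 in turn 2, 30 and 80 passed, and with array weights 128. Of the 50 lower calls, 48 were of genes on 2 arrays. The median of the members' means (−0.08) lay between −0.15 and −0.005 with 1 replicate left out, and that of the large subunit (−0.10) between −0.16 and −0.06. For the small subunit (−0.003) the range was −0.09 to 0.04. With replicate 3 turned once more, the medians were 0.0388 for the members and −0.00265 for the large subunit, against 0.01 for all genes. The sign of the mean changed there for 21 of 64 members, and for 15 and 9 of 54 without replicates 1 and 2 and 7 of 64 without replicate 3. In the other settings 0 to 6 changed sign. With a dye term the members' median was −0.06 for strain and 0.07 for dye, against 0.04 and 0.04 for all genes. The test of the ratio against 0 is itself paired, because each array sets 1 culture of each strain against the other. Missing values limit what could be tested for genes without replicate 3.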

Other observations

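PET112 (YBL080C), a subunit of the amidotransferase that makes glutaminyl transfer RNA in mitochondria, was called lower in War1K762R cells. It is in none of the lists and was chosen after its value was seen. It had −1.07 and −0.63 in replicates 1 and 2 and no value in replicate 3 (mean −0.85 ± 0.31, SD, n = 2, limma, adjusted p = 0.0275). It did not pass with single spots (adjusted p = 0.0924), without centring (0.0735) or with replicate 3 turned once more (0.142), and it could not be fitted on all 3 arrays or with a dye term. Of 1900 genes on 2 arrays, 48 were called lower and 7 higher, and of 3579 on 3 arrays 2 lower and 60 higher, and the part of dye in the value of PET112 was not tested.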
